A study of Mus musculus with 3 samples.

Results

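T-box transcription factors share a DNA-binding domain, the T-box, and direct the formation of mesoderm and of the organs that come from it. The genes described here were 10 members of the family chosen by name, of 22350 protein-coding genes annotated in the mouse. They were T, Eomes, Tbx1, Tbx2, Tbx3, Tbx4, Tbx5, Tbx6, Tbx18 and Tbx20. The choice was made with earlier results of these data known. For each gene, the regions called enriched in 3 ChIP-Seq libraries were collected in its promoter, defined as 2 kb on each side of every annotated transcript start, and in its gene window, defined as the gene with 10 kb of flank on each side.

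The libraries came from mouse embryonic stem cells (ESCs), and the study asked how the acidic patch of the histone variant H2A.Z, a surface of the nucleosome that other proteins bind, contributes to chromatin at developmental genes. The H2A.Z WT library was made from cells carrying a doxycycline-inducible transgene for wild-type H2A.Z fused to YFP. The H2A.Z AP3 library came from cells with the same kind of transgene in which acidic patch residues were replaced by those of H2A (G92N, D97N and S98K), and the H3K27me3 library was labelled with the genotype WT. No H3K27me3 library came from AP3 cells, so each overlap of H2A.Z AP3 with H3K27me3 below sets different cells side by side. Both H2A.Z libraries were immunoprecipitated with an antibody against GFP, which binds the YFP tag. There was 1 library in each of the 3 groups, so every difference between libraries below is without a replicate check and no test was made.

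In both transgenic lines the construct was delivered by lentivirus and driven by a CMV promoter under an rtTA drug-inducible system, YFP-positive cells were sorted, and hairpins against the transcript of the cells' own H2A.Z were introduced. The libraries therefore show the tagged protein on a depleted background and not the cells' own H2A.Z. The labels name the strain V6.5 for the 3 samples, whereas their protocol describes the transgenic lines as KH2 derivatives. The number of independent clones or cultures behind a library was not given in the sources used here.

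The H2A.Z WT list held 78359 regions over 28.3 Mb, the H2A.Z AP3 list 14599 regions over 3.50 Mb and the H3K27me3 list 16970 regions over 9.32 Mb at a threshold of 1e-9, the main list. Another list per library used 1e-12. The files give the start and end of each region, on multiples of 25 bp, with no height and no read count. Depth is thus unknown, and from these lists a shorter list cannot be told apart from a shallower library. By immunoblot of chromatin fractions, the study separately reported less of the AP3 mutant than of wild-type H2A.Z. No region means that none passed the threshold, not that the histone was absent. Genes used in ESCs were examined as a check of the label: H3K27me3 was called at the promoter of 1 of 8, Esrrb, and at none of Pou5f1, Nanog, Sox2, Klf4, Zfp42, Actb and Gapdh, although 1225 bp lay in the Sox2 gene window. As 18.2% of all protein-coding promoters had H3K27me3, this count is a weak check.

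Several of these genes act in succession as the embryo gastrulates. T (Brachyury) and Eomes are switched on in the primitive streak, Tbx6 follows in the paraxial mesoderm, and the remaining members pattern the pharynx, heart and limbs. In ESCs many developmental regulators are known to be held inactive by the Polycomb system. It deposits H3K27me3, the trimethylated form of lysine 27 on histone H3, over broad domains around CpG-rich promoters. H2A.Z is known to flank the starts of many genes, both active and Polycomb-bound.

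The stretches of the mm9 genome printed here show the kinds of chromatin found at these genes. They run 5′ to 3′ on the strand of the gene, with each CpG dinucleotide, the sequence feature of Polycomb-bound promoters, in capitals. Positions are counted from the most upstream annotated start, which is position 0, and negative positions lie before it. The T sequence (chr17:8626413-8626712, plus strand, -875 to -576) is the middle of a region that was called in the H2A.Z WT and H3K27me3 libraries and not in H2A.Z AP3. The Tbx1 (chr16:18588601-18588800, minus strand, -687 to -488) and Tbx4 (chr11:85701926-85702150, plus strand, 2002 to 2226) sequences are H2A.Z AP3 regions that lay wholly inside both other libraries. The Tbx18 sequence (chr9:87635213-87635512, minus strand, -9417 to -9118) is the middle of a distal H2A.Z AP3 region, and the Tbx6 sequence (chr7:133924697-133924996, plus strand, -300 to -1) lies directly before a start where no library had a region. None of them overlapped an annotated exon.
T, upstream H2A.Z WT region: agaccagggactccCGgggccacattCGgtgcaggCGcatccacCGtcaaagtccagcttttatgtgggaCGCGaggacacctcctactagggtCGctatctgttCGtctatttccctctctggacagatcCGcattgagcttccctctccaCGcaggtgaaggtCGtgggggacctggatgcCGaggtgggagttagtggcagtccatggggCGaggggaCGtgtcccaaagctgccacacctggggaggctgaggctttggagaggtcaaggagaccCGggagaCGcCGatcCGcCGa
Tbx1, upstream H2A.Z AP3 region: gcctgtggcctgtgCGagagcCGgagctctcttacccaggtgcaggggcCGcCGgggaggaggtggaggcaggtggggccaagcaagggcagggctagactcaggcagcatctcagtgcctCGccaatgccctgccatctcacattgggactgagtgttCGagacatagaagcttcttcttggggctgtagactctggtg
Tbx4, intronic H2A.Z AP3 region: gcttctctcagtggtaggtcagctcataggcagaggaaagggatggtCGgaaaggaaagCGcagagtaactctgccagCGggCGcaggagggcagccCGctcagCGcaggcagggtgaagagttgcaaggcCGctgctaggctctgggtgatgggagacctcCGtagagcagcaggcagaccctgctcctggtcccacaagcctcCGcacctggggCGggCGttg
Tbx18, distal H2A.Z AP3 region: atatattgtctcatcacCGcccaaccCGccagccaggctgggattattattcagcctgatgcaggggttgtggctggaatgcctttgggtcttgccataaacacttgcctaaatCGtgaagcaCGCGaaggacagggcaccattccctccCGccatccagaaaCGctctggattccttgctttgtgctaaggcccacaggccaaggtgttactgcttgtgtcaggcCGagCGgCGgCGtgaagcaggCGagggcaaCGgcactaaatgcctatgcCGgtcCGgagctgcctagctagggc
Tbx6, before the start: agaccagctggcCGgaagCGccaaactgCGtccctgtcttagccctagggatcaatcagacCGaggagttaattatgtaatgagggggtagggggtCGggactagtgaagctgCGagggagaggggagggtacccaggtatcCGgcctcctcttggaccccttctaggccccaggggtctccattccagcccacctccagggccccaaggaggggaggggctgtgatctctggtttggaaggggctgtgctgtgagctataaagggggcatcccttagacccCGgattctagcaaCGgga
The T stretch held 19 CpGs in 300 bases, the Tbx18 stretch 15 in 300, the Tbx4 stretch 11 in 225 and the Tbx1 stretch 6 in 200. The Tbx6 stretch held 9 in 300, so that its density, 3.0 per 100 bp, equalled that of the Tbx1 region that H2A.Z AP3 occupied.

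Of the 10 T-box promoters, 9 carried H2A.Z WT and H3K27me3 together, and H2A.Z AP3 was called at 5 of them. H2A.Z WT was called at 9 of 10 promoters, against 61.7% of all protein-coding promoters, and H3K27me3 at the same 9 of 10, against 18.2%. Both were present at 9 of 10, where 17.3% of all promoters had both. H2A.Z AP3 was called at 5 of 10 (Eomes, Tbx1, Tbx4, Tbx5 and Tbx18), against 23.2%, and regions of the 3 libraries together were found at the same 5 of 10, against 7.90%. Among promoters that had both H2A.Z WT and H3K27me3, however, H2A.Z AP3 was called at 45.7% of all 3864 such genes, and 5 of the 9 T-box genes is near that share. Tbx6 was the exception, with no region in any library. The 10 genes were chosen with earlier results known, and of the other 7 T-box promoters H3K27me3 was called at 3.

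In the gene windows H2A.Z WT and H3K27me3 were again found at 9 of 10 genes, against 75.1% and 24.9% of all genes. H2A.Z AP3 was called in 8 of 10 windows, against 39.3%, the genes without it being T and Tbx6. At 1e-12, H2A.Z WT and H3K27me3 were still called at 9 of 10 promoters each, against 60.0% and 15.7%. H2A.Z AP3 was called at 3 of 10 promoters (Eomes, Tbx1 and Tbx4), against 18.8%, and in 5 of 10 gene windows, against 32.6%.

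**Figure D1:**
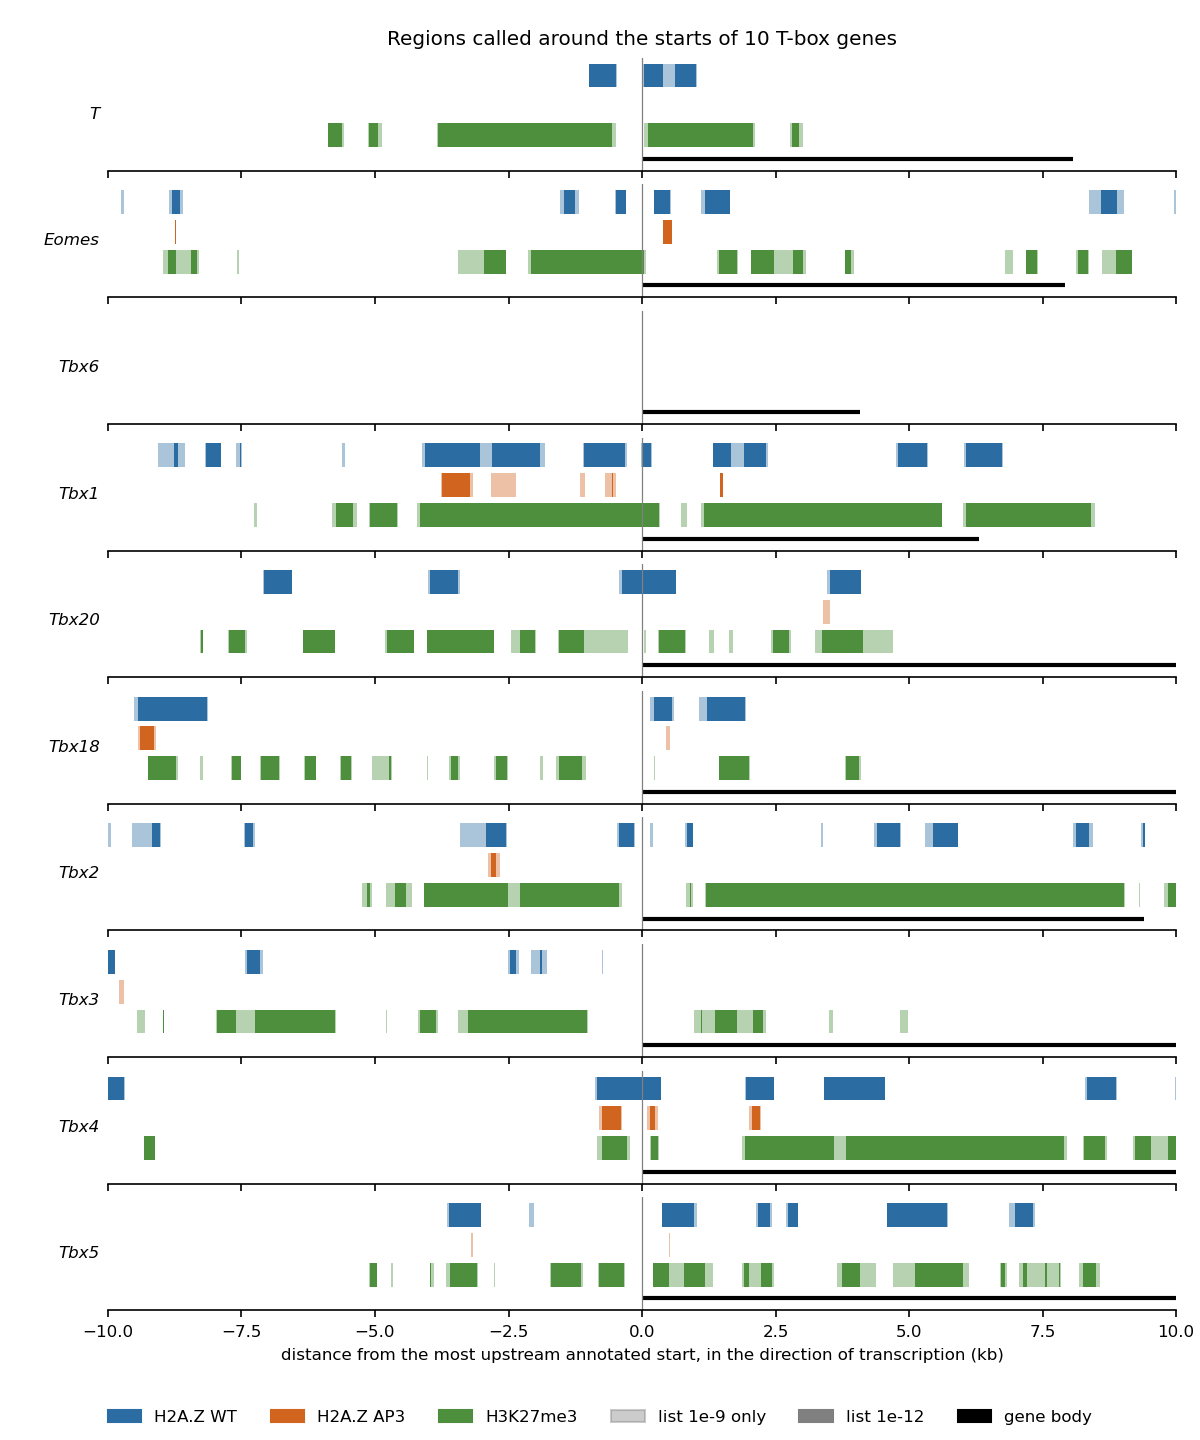
Regions called within 10 kb of the most upstream start of each T-box gene, drawn in the direction of transcription (kb), with H2A.Z WT in blue, H2A.Z AP3 in orange and H3K27me3 in green; pale bars are in the 1e-9 list, full colour marks the 1e-12 list and black lines are gene bodies. H3K27me3 forms the longest bar at 8 genes, H2A.Z AP3 appears as short bars at 8, and the Tbx6 row is empty.

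H3K27me3 regions covered much of most T-box promoters, whereas H2A.Z AP3 regions covered little of any. H3K27me3 covered a median of 58.8% of the promoter over the 10 genes (0 to 86.6%), compared with 14.6% over the 3864 genes with both H2A.Z WT and H3K27me3 and 0% over all genes. H2A.Z WT covered a median of 28.5% (0 to 44.3%), compared with 17.5% and 4.12%. For H2A.Z AP3 the median was 0.312% (0 to 7.30%), and it was 0% in both other sets. As sums, H2A.Z AP3 covered 1425 bp of these promoters and H2A.Z WT 12570 bp, so that the AP3-covered length was 11.3% of the WT-covered length. This percentage was 12.9% over the 3864 genes with both marks and 14.3% over all genes, and therefore differed little from either.

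The plot of promoter bases by gene shows these values for both thresholds. Of the bases that H2A.Z WT covered in the T-box promoters, 76.3% lay inside H3K27me3, against 39.2% over the genes with both marks. Conversely, 33.5% of the H3K27me3 bases lay inside H2A.Z WT, against 36.9% over those genes and 36.1% over all genes. H3K27me3 covered a larger part of the T-box promoters, and the share of that in the first contrast was not tested. Of the bases covered by H2A.Z AP3, 78.9% lay inside H3K27me3, against 42.8%, and 94.7% lay inside H2A.Z WT, against 91.4%. Of the 1125 bp of H2A.Z AP3 inside H3K27me3, 800 bp were at Tbx4, 300 bp at Tbx1 and 25 bp at Tbx5. At Eomes and Tbx18 no H2A.Z AP3 base of the promoter lay inside H3K27me3. The part of the wider H3K27me3 coverage in the 78.9% was not tested either. The H3K27me3 library was labelled WT, so these shares do not show where the mark lay in AP3 cells. By ChIP-qPCR the study reported less H3K27me3 in AP3 cells at bivalent genes, which carry H3K4me3 and H3K27me3.

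**Figure D2:**
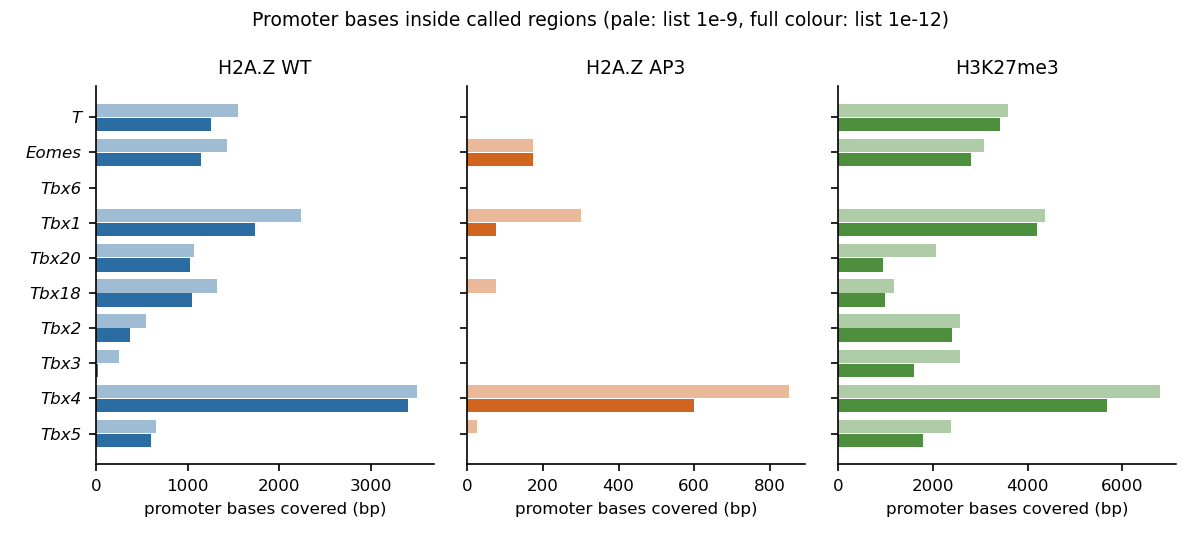
Promoter bases (bp) inside called regions for each T-box gene, 1 panel per library with its own horizontal scale; pale bars are the 1e-9 list and full bars the 1e-12 list. Tbx4 has the longest bars in the 3 panels, at 3509, 850 and 6799 bp, with an 11643 bp promoter window, and the H2A.Z AP3 panel is empty for 5 genes.

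T encodes Brachyury, which specifies posterior mesoderm and the notochord. The gene lies at chr17:8627288-8635361 on the plus strand. Its promoter of 4503 bp held 1550 bp of H2A.Z WT, 0 bp of H2A.Z AP3 and 3588 bp of H3K27me3. The H3K27me3 coverage, 79.7% of the window, was reached or exceeded by 0.658% of protein-coding genes. H2A.Z WT formed a pair of regions on either side of the start, 525 bp from -987 to -463, from which the sequence above was taken, and 1025 bp from 13 to 1037. The larger was within the longest 5.91% of the H2A.Z WT list. H3K27me3 flanked the start in the same manner, with 3350 bp ending at -488 and 2075 bp from 38 to 2112, and 96.8% of the H2A.Z WT bases lay inside it. T had strong coverage in both of these libraries and no H2A.Z AP3 region in its gene window, the nearest one upstream being 20813 bp from the start.

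Eomes, which acts in the trophoblast and then in the definitive endoderm and nascent mesoderm, lies at chr9:118387330-118395250 on the plus strand. Its promoter held 1425 bp of H2A.Z WT, 175 bp of H2A.Z AP3 and 3075 bp of H3K27me3. The H2A.Z WT bases were spread over 4 regions, of which the longest, 550 bp, lay downstream of the start from 1096 to 1645. One H3K27me3 region of 2200 bp, from -2129 to 70, covered the start base itself. The H2A.Z AP3 region, from 396 to 570, lay in a gap of that mark. It shared 150 bp with an H2A.Z WT region and no base with H3K27me3, and its 175 bp were all kept at 1e-12.

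Tbx6, which is required for paraxial mesoderm and the somites, differed from both. No library had a region in its gene window (gene at chr7:133924997-133929074, plus strand), at either threshold. The nearest H2A.Z WT regions were 21497 bp upstream and 18004 bp downstream of its start. The Tbx6 window also contains the starts of other protein-coding genes, Ypel3, Gm9967 and Ppp4c, and they too lacked regions within it.

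Tbx1 is a regulator of the pharyngeal arches and cardiac outflow tract. It lies at chr16:18581806-18588113 on the minus strand and had the largest promoter fractions of the 10 genes in the H2A.Z WT and H3K27me3 libraries. H2A.Z WT covered 2238 bp, H2A.Z AP3 300 bp and H3K27me3 4377 bp of a promoter of 5052 bp. The H3K27me3 fraction, 86.6%, was reached by 0.327% of all genes. An H3K27me3 region of 4550 bp, from -4212 to 337, contained an H2A.Z WT region of 2300 bp (-4112 to -1813) that was within the longest 0.264% of its list. The start of an opposite-strand transcript, 4930588K23Rik, lies at -3972 inside both regions, so that this upstream coverage cannot be assigned to Tbx1 alone. H2A.Z AP3 was called in 4 regions upstream of Tbx1, of 600, 475, 100 and 200 bp, and the sequence shown above is the one nearest to the start. Their 1375 bp lay inside H3K27me3, and H2A.Z AP3 covered 5.23% of the gene window, the largest fraction among the 10 genes. At 1e-12 the promoter coverage of H2A.Z AP3 at Tbx1 was 75 bp, against 300 bp at 1e-9.

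Tbx20, which acts in the growth of the heart chambers, lies at chr9:24527648-24578746 on the minus strand. It held 1075 bp of H2A.Z WT and 2071 bp of H3K27me3 in its promoter, and no H2A.Z AP3. The H2A.Z WT bases formed a single region from -429 to 645 that included the start. H3K27me3 was broken into 6 promoter regions, the longest of 1325 bp from -1579 to -255, and its promoter coverage fell from 2071 to 950 bp at 1e-12. An H2A.Z AP3 region of 125 bp lay inside the gene from 3396 to 3520, overlapping an exon at its midpoint, and had no counterpart at 1e-12.

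Tbx18, known from the sinus node, epicardium and ureter, lies at chr9:87597635-87626095 on the minus strand. Its promoter held 1325 bp of H2A.Z WT, all downstream of the start, 75 bp of H2A.Z AP3 and 1181 bp of H3K27me3. It was the only gene of the 10 where H2A.Z WT covered more of the promoter than H3K27me3 did. The longest regions of the gene window in either H2A.Z library coincided far upstream, at 1375 bp from -9505 to -8131 and 325 bp from -9430 to -9106. The latter kept 275 bp at 1e-12, and 150 bp of it lay inside H3K27me3. The promoter region of H2A.Z AP3, from 445 to 519, was lost at 1e-12. The longest promoter regions in the other libraries overlapped downstream of the start, 875 bp of H2A.Z WT from 1070 to 1944 and 575 bp of H3K27me3 from 1445 to 2019.

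Tbx2 and Tbx3 encode repressors that act in the atrioventricular canal, the conduction system and the limb, and each lies on the same chromosome as a relative that acts in limb outgrowth. Tbx2 (chr11:85646053-85655450, plus strand) had 550 bp of H2A.Z WT, 0 bp of H2A.Z AP3 and 2576 bp of H3K27me3 in its promoter. Its gene body was nearly filled by a single H3K27me3 region of 7875 bp, from 1173 to 9047, and 10 of the 16970 H3K27me3 regions were at least as long. H3K27me3 covered 85.4% of the gene and H2A.Z WT 19.2%, whereas H2A.Z AP3 had no region inside it. The start of a divergent lincRNA, 2610027K06Rik, lies at -342 and -328 within an H2A.Z WT region of 350 bp (-477 to -128), so that promoter coverage of the 2 genes cannot be told apart there. The nearest H2A.Z AP3 region upstream, 225 bp from -2877 to -2653, lay inside both other libraries.

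Tbx3 (chr5:120120678-120134733, plus strand) had the least H2A.Z WT of the 9 marked genes, with 248 bp in a promoter of 12854 bp that is wide because its 6 starts are far apart. H2A.Z AP3 covered 0 bp and H3K27me3 2573 bp. At 1e-12 the H2A.Z WT coverage was 25 bp. The H2A.Z WT fraction was 1.93%, and 57.1% of all genes had at least that much. No H2A.Z region of either library lay inside the Tbx3 gene, while 4 H3K27me3 regions did. Its longest promoter regions were 300 bp of H2A.Z WT from -2077 to -1778 and 2450 bp of H3K27me3 from -3452 to -1003. Within 2 kb of the most upstream start H3K27me3 covered 998 bp upstream and 1027 bp downstream. An antisense transcript, Gm2301, begins at 696, and these data cannot assign regions to a strand.

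Tbx4 (chr11:85699924-85729599, plus strand) functions in the hindlimb and lung and had the most promoter coverage in each library, 3509 bp of H2A.Z WT, 850 bp of H2A.Z AP3 and 6799 bp of H3K27me3. Its 3 starts make a promoter of 11643 bp, of which these are 30.1%, 7.30% and 58.4%. An H2A.Z WT region of 1225 bp covered the start from -873 to 351. Within it lay H2A.Z AP3 regions of 425 bp (-798 to -374) and 200 bp (102 to 301), on either side of the start. The third AP3 region of the promoter, the intronic sequence shown above, lay inside an H3K27me3 region of 6075 bp from 1877 to 7951. At Tbx4 600 of the 850 bp of H2A.Z AP3 were kept at 1e-12, the largest remainder among the 10 promoters.

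Tbx5, needed for the forelimb and the heart, lies at chr5:120284672-120335227 on the plus strand. Its promoter held 650 bp of H2A.Z WT, 25 bp of H2A.Z AP3 and 2372 bp of H3K27me3. The H2A.Z WT region, from 379 to 1028, lay wholly inside the longest H3K27me3 region of the promoter, 1125 bp from 204 to 1328, and the AP3 region was 1 bin long, at 504 to 528, and was absent at 1e-12. A longer H2A.Z WT region of 1150 bp was found in an intron, from 4579 to 5728, and overlapped no H2A.Z AP3. An AP3 region of 125 bp near 32454 lay inside H2A.Z WT but 23875 bp from the nearest H3K27me3.

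Tbx2 with Tbx4 and Tbx3 with Tbx5 are linked gene pairs, thought to descend from an ancestral pair, and the marks were distributed differently over them. The Tbx2 and Tbx4 genes are 44473 bp apart, and over the whole locus with flanks of 10 kb (103547 bp) H2A.Z WT covered 12.0%, H2A.Z AP3 1.16% and H3K27me3 24.3%. The Tbx3 and Tbx5 genes are 149938 bp apart, and over 234550 bp the values were 3.77%, 0.298% and 9.66%. The second locus has the longer space between its genes, and H3K27me3 coverage was lower in its genes too. H3K27me3 covered 85.4% of Tbx2 and 29.4% of Tbx4, but 11.7% of Tbx3 and 10.3% of Tbx5. Outside the flanks of either gene, the space between Tbx3 and Tbx5 contained an H3K27me3 region of 5550 bp (chr5:120251151-120256700) that ended at -27972 from the Tbx5 start. It held 1175 bp of H2A.Z WT and 100 bp of H2A.Z AP3.

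**Figure D3:**
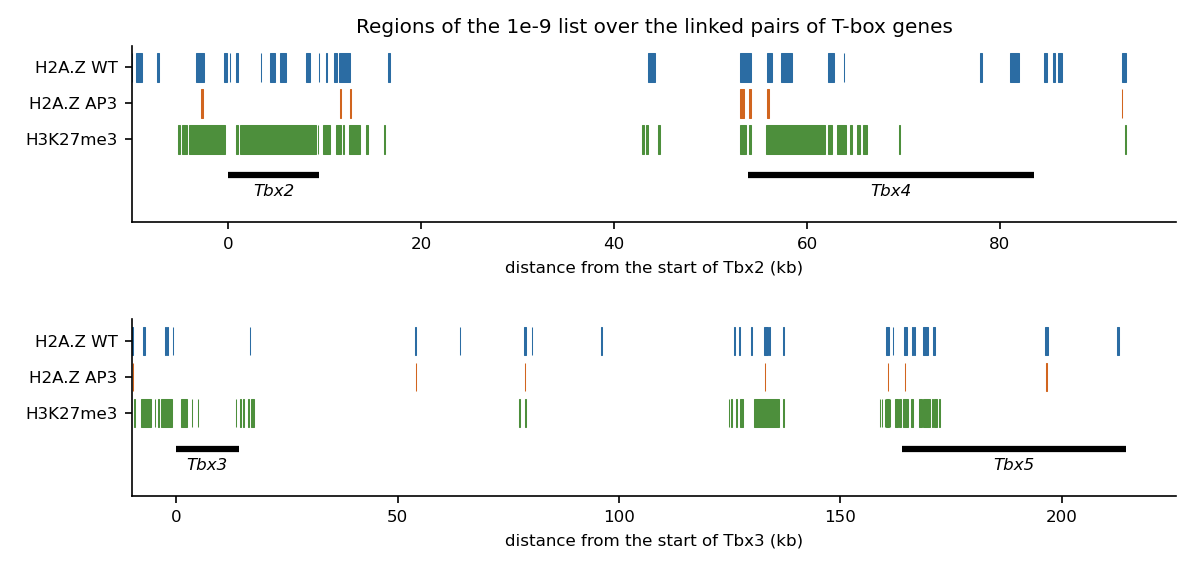
Regions of the 1e-9 list over the linked T-box gene pairs, with distance in kb from the start of Tbx2 (upper panel) or Tbx3 (lower panel); black bars are genes, and lines are drawn with a minimum width so that 25 bp regions stay visible. H3K27me3 fills Tbx2 (85.4% of the gene) and the 5′ part of Tbx4, and in the lower panel a block of 5550 bp stands between Tbx3 and Tbx5.

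In each library the start base itself was covered at 3 or fewer of the 10 T-box genes. For H2A.Z WT and H3K27me3 this was not below the share of all genes. The start base lay inside an H2A.Z WT region at 3 of 10 genes (Tbx1, Tbx4 and Tbx20), inside an H3K27me3 region at 2 (Eomes and Tbx1), and inside an H2A.Z AP3 region at none. Over all protein-coding genes these shares were 25.8%, 3.13% and 2.58%. In the 25 bp bin at the start, the genes with both marks had H2A.Z WT at 48.6% and H3K27me3 at 18.0%, against 30% and 20% of the 10 T-box genes. Within 2 kb of the start, H2A.Z WT covered 4000 bp upstream and 5996 bp downstream when summed over the 10 genes. The sums were 725 and 475 bp for H2A.Z AP3 and 11830 and 8586 bp for H3K27me3. H2A.Z AP3 lay more upstream at 2 genes (Tbx1 and Tbx4) and more downstream at 3, so its larger upstream sum came from those 2.

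In 25 bp bins, the largest share of the 10 genes inside an H2A.Z WT region was 60.0%, at 162, and the largest upstream share was 50.0%, at -463. The H2A.Z WT maximum was 35.7%, at 187, over all genes and 61.3%, at 287, over the genes with both marks, which is near the T-box value. H3K27me3 reached 80.0% of the 10 genes from -1563 to -1113, and again near -3438, and 70.0% at 1637. It was 20% at the start and 30% at 987. Over the genes with both marks its maximum was 43.3%, at 987. H2A.Z AP3 reached 30.0% at 512, which stands for 3 genes, and 0% at the start.

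**Figure D4:**
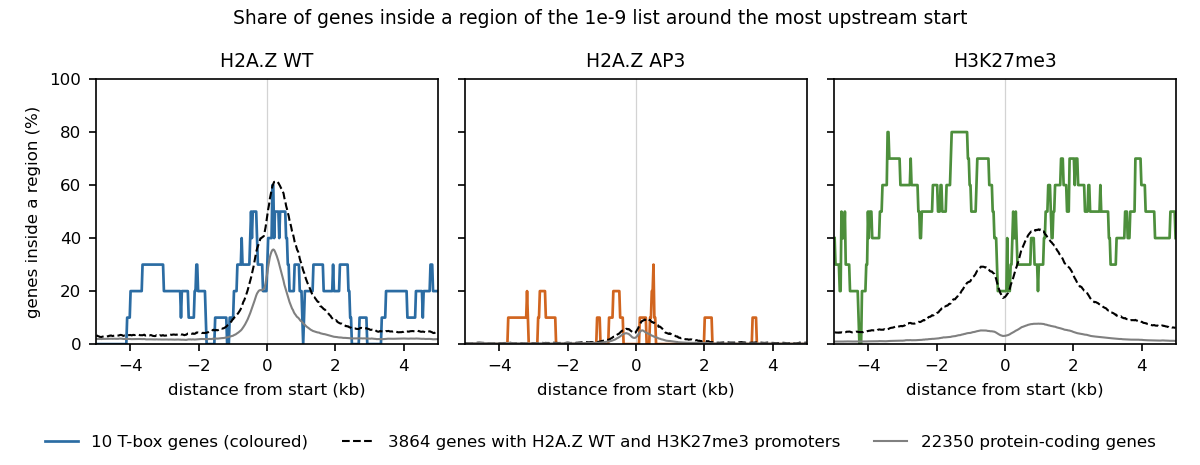
Percent of genes inside a region of the 1e-9 list in each 25 bp bin within 5 kb of the most upstream start, for the 10 T-box genes (coloured), the genes with H2A.Z WT and H3K27me3 at the promoter (dashed) and all protein-coding genes (grey); each step of the coloured line is 1 gene. The coloured H3K27me3 line reaches 80.0% upstream, falls to 20% at the start, lies below the dashed line near 987 bp and rises to 70.0% at 1637 bp, and the H2A.Z AP3 line reaches 30.0% at 512 bp.

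Counted by region, the 10 gene windows held 75 H2A.Z WT, 19 H2A.Z AP3 and 101 H3K27me3 regions. The H2A.Z WT regions had a median length of 350 bp, against 250 bp in the whole list, and the H3K27me3 regions 375 bp, against 250.0 bp. The H2A.Z AP3 regions were short, at a median of 125 bp compared with 175 bp in their list. Of the 19, 17 touched H2A.Z WT and 14 touched H3K27me3. The 2 that did not touch H2A.Z WT, near Tbx2 (50 bp) and Tbx3 (100 bp), were within 25 and 75 bp of such a region. No such counts are given for the whole H2A.Z AP3 list. By bases, 91.5% of H2A.Z AP3 in these windows lay inside H2A.Z WT. This was 76.5% over the windows of all genes and 85.9% over those of genes with both marks. For H3K27me3 the shares were 79.6%, 12.6% and 30.3%, and 1375 of the 2825 bp in the T-box windows were at Tbx1.

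H2A.Z AP3 touched 12 of the 45 H2A.Z WT regions that overlapped H3K27me3 (26.7%) and 2 of the 30 that did not (6.67%). Over the whole H2A.Z WT list the shares were 26.8% (1695 of 6332) and 11.7% (8450 of 72027). The marked H2A.Z WT regions were also the longer ones, at a median length of 550 bp compared with 225.0 bp. Regions touched by H2A.Z AP3 measured 737.5 bp at the median and those it did not touch 300 bp. The part of length in the difference was not tested, and H3K27me3 was mapped only in cells labelled WT.

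At the median, the promoters of the 10 genes held more CpGs than those of all genes, with a wide range. Within 500 bp of the start the median number of CpGs was 55.0, against 41.0 over 22338 genes with sequence and 18.0 over the other 7 T-box genes. Tbx2 had 94, Tbx3 82 and T 65, numbers reached by 9.73%, 16.1% and 29.4% of genes. For Eomes, Tbx1, Tbx4, Tbx18 and Tbx20 this share was 35.7% to 45.5%. Tbx6 had 29 and Tbx5 had 8, reached by 57.7% and 84.6% of genes. Tbx5 was marked by H3K27me3 with 8 CpGs, and Tbx6 was not with 29. Only 1 of the 10 genes was unmarked, so a relation of CpG number to the mark could not be examined in them. H2A.Z WT regions in the gene windows held a median of 4.78 CpGs per 100 bp, H2A.Z AP3 regions 4.00 and H3K27me3 regions 2.18, compared with 2.67, 2.67 and 2.00 in the whole lists. H3K27me3 regions that touched H2A.Z WT held 3.58 and those that did not held 1.60.

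T-box proteins bind the motif AGGTGTGA, and its presence in the family's own promoters was looked up on both strands. One match was found in the 10 promoters taken 2 kb on each side of the most upstream start, at Eomes. It lay at -1739 to -1732 within the H3K27me3 region that covered the Eomes start and outside both H2A.Z lists, and it is shown with its neighbours (chr9:118385580-118385609, plus strand) and the motif, here as its complement TCACACCT, in capitals.
Eomes, T-box motif: gagattcagtcTCACACCTacatctccctc
The motif occurred in 16.6% of all such promoters, so 1 of 10 is no excess. A match of letters does not show that a protein binds.

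The other 7 T-box genes of the mouse were called less uniformly. H2A.Z WT was called at 6 of 7 promoters, all but that of Mga, H2A.Z AP3 at 4 (Tbr1, Tbx10, Tbx15 and Tbx21) and H3K27me3 at 3 (Tbr1, Tbx15 and Tbx21). Close relatives therefore shared marks in some subfamilies and not in others. Tbr1 and Tbx21, the cortical and T-helper cell relatives of Eomes, had H3K27me3 over 46.0% and 68.3% of their promoters, against 66.1% at Eomes. Tbx10, the relative of Tbx1, had none, although H2A.Z WT covered 35.0% and H2A.Z AP3 11.9% of its promoter. Tbx19, the pituitary relative of T, had 225 bp of H2A.Z WT and nothing else.

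**Figure D5:**
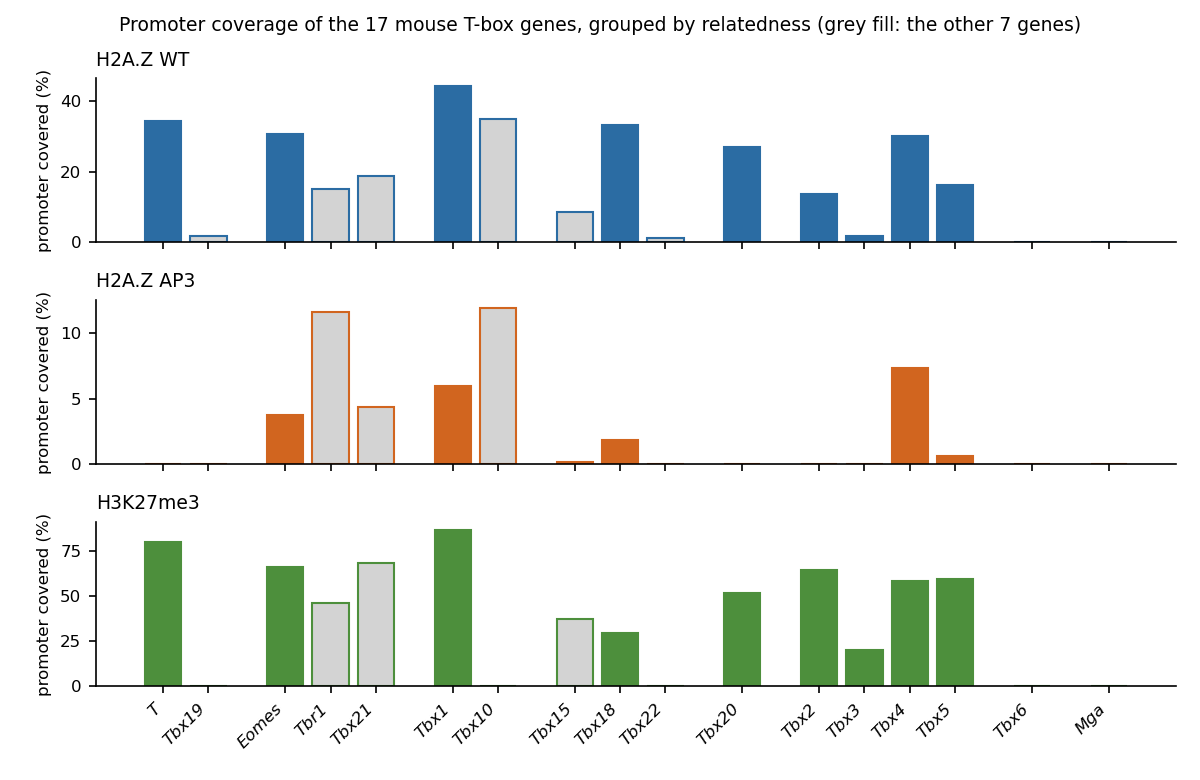
Percent of the promoter inside regions of the 1e-9 list for the 17 mouse T-box genes, with relatives side by side and a separate vertical scale for each library; filled bars are the 10 genes described here and grey bars the other 7. Tbx10 has H2A.Z WT and H2A.Z AP3 bars and no H3K27me3 bar, and Tbx6 and Mga have no bar.

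Genes that work with these factors were counted in the same way, against the shares of all promoters given above (H2A.Z WT 61.7%, H3K27me3 18.2% and H2A.Z AP3 23.2%). Of 9 streak and mesoderm genes, H2A.Z WT was called at 9 promoters, H3K27me3 at 8, all but Msgn1, and H2A.Z AP3 at 4 (Mixl1, Gsc, Dll1 and Foxa2). The promoter bases in H3K27me3 were highest at Foxa2, an endoderm and node factor (5031 bp), Dll1, a Notch ligand of the paraxial mesoderm (4625 bp of a wide window of 12483 bp), and Wnt3a, a signal of the streak (3701 bp). Of 8 heart and limb genes, H2A.Z WT and H3K27me3 were each called at 7, all but Nppa, which encodes a hormone of differentiated heart muscle, and H2A.Z AP3 at 5. Gata4 (4448 bp of a wide window of 12594 bp), Hand1 (3777 bp) and Nkx2-5 (3301 bp), transcription factors of the early heart, had the most promoter bases in H3K27me3. As fractions of the promoter these were 91.4% at Foxa2, 37.1% at Dll1, 92.5% at Wnt3a, 35.3% at Gata4, 80.8% at Hand1 and 82.5% at Nkx2-5. The median fraction of the promoter under H3K27me3 was 62.5% for the streak list and 51.7% for the heart and limb list, near the 58.8% of the T-box genes. For H2A.Z WT the medians were 34.7% and 19.8%, on either side of 28.5%. For H2A.Z AP3 they were 0% and 3.28%, on either side of 0.312%, and AP3-covered bases were 7.25% and 18.0% of WT-covered bases, against 11.3%.

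A smaller part of the H2A.Z AP3 bases than of the other libraries' bases was also in the 1e-12 list, here as in the whole lists. The 1e-12 lists were not subsets of the 1e-9 lists. The whole H2A.Z AP3 list at 1e-12 covered 2327900 bp, of which 1922825 bp were in its 1e-9 list. For H2A.Z WT these were 22114850 and 21107400 bp, and for H3K27me3 6756950 and 6690475 bp. In the 10 gene windows 77.8% of the H2A.Z WT bases and 80.6% of the H3K27me3 bases were also in the 1e-12 list, against 74.6% and 71.8% of the whole lists. For H2A.Z AP3 it was 47.9%, against 54.9%. None of the AP3 bases in the windows of Tbx3, Tbx5 and Tbx20 was kept, whereas Eomes kept 100% of its bases, Tbx18 68.8% and Tbx4 68.6%. None of the 10 genes lies on chromosome 6, 8 or X, where H2A.Z AP3 was called at 43.6%, 50.3% and 5.47% of promoters against 17.5% to 24.9% on the other chromosomes. Without these 3 chromosomes the share of all promoters with H2A.Z AP3 was 21.3%.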

How the data were processed

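Chromatin from mouse ESCs was profiled by ChIP-Seq in 3 libraries, 1 for each of wild-type H2A.Z, its AP3 mutant and H3K27me3, grouped by the labels. Per the study's methods and the submitters' processing notes, the authors aligned reads to mm9 with Bowtie 0.12.3, extended them, counted them in 25 bp bins and called bins by a Poisson model at 1e-9 with a minimum fold over input. The methods state this calling for H2A.Z and also credit H3K27me3 peaks to earlier work, so how the H3K27me3 lists were called is not settled, and they do not describe the 1e-12 lists. The deposited values are region starts and ends (columns 2 and 3), with no signal, count or p-value. The H3K27me3 label names a Millipore antibody and the methods another supplier, so the antibody is unsettled.

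Promoters (2 kb each side of every start) and gene windows (10 kb of flank) came from GENCODE vM1 on the matching genome build (NCBIM37). A call needed 1 bp of overlap. Bases were counted with Python 3.11.15 and NumPy 2.4.6, and intervals with SciPy 1.17.1. The interval arithmetic was checked on simulated regions at 724 genes of chromosome 19 against base-by-base counting, with 0 wrong. With 1 library per group no test was made, and precision is limited by the 25 bp bins and unknown depth. CpGs and motifs were read from the genome sequence on mm9 at 22338 genes.

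The members and lists were chosen with earlier results of these data known. The genes named were the 10 members, the other 7 T-box genes, and, from lists of 9 streak and mesoderm genes and 8 heart and limb genes, the 3 with most H3K27me3 promoter bases. For each member the longest region of each library at the promoter and the H2A.Z AP3 regions there were described. Alternatives were the 1e-12 list, the union of lists, other promoter and flank widths, other start choices, region length, joining of regions, other overlap rules and omission of chromosomes 6, 8 and X.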

Additional observations from a re-analysis of the deposited data

Results flagged for a closer look

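Regions of the 1e-12 lists should lie within those of the 1e-9 lists if they were made from the same calls, and a few in the T-box gene windows did not. In the H2A.Z AP3 library 2 such regions had no base in the 1e-9 list. They were 25 bp at Eomes (-8754 to -8730) and 50 bp at Tbx1 (1463 to 1512), and each lay inside H2A.Z WT and H3K27me3. In the H3K27me3 library there was 1, of 25 bp, upstream of Tbx3 (-8977 to -8953). They were noted because the 1e-12 lists entered no main count. The 50 bp at Tbx1 are part of its 75 bp of promoter coverage at 1e-12. The cause was not tested.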

How the results depend on the processing

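Of 129 values recomputed under the alternatives, 99 stayed within a set margin of the main value and 30 did not. The margin was 1.5 times for counts and the 95% Wilson interval for percentages. That interval was taken over 25 bp bins or, for values of all genes, over genes. Neighbouring bins are not independent, so the interval is a yardstick and no measure of spread. H2A.Z WT and H3K27me3 were called at 9 promoters under each alternative, and H2A.Z AP3 at 3 to 7. Calls over all genes were recomputed only for the 1e-12 list and without chromosomes 6, 8 and X. Counts under the other settings have no such share beside them, so a change particular to these genes cannot be read from them. The 1e-12 list gave H2A.Z AP3 at 3 promoters and in 5 gene windows. It gave H2A.Z AP3 medians of 0% of the promoter and 0.170% of the gene window, where H3K27me3 had 46.8% and 15.9%. AP3-covered bases were then 8.0% of WT-covered bases, and 65.6% of the latter lay in H3K27me3. Regions of at least 100 bp gave H2A.Z AP3 at 3 promoters and a median of 0%, and requiring 100 bp of coverage gave 3. The promoters lost under these rules were those of Tbx5, with 25 bp, and Tbx18, with 75 bp. With promoters of 1 kb each side the H2A.Z WT median was 35.5%. With 5 kb the medians were 16.1% for H2A.Z WT and 45.7% for H3K27me3, and 82.6% of WT-covered and 89.6% of AP3-covered bases lay in H3K27me3. Taking the most upstream start gave 72.2% of WT-covered bases in H3K27me3. Joining regions across 1 kb gave promoter medians of 36.8% and 74.0% for H2A.Z WT and H3K27me3, 89.0% of AP3-covered bases in H3K27me3, and a gene window median of 26.1% for H3K27me3. Without flank H2A.Z AP3 was called in 5 gene windows, and the medians were 9.55% for H2A.Z WT and 0.122% for H2A.Z AP3. With a flank of 5 kb they were 8.25% for H2A.Z WT and 23.5% for H3K27me3. Without chromosomes 6, 8 and X, 21.3% of all promoters had H2A.Z AP3, and 37.6% of gene windows did, while 75.7% had H2A.Z WT and 25.6% had H3K27me3. Beyond what each setting counts, the cause of these shifts was not tested. No paired analysis was possible because each group holds 1 library. Unknown depth limits each list, and no other library repeats the H2A.Z AP3 calls.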
